A study of Mus musculus with 8 samples.

Results

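The Kruppel-like factors (KLFs) are transcription factors that share a carboxy-terminal block of zinc fingers and bind GC-rich and CACCC-type DNA. They were taken here as 10 genes chosen by symbol, Klf2, Klf3, Klf4, Klf5, Klf6, Klf7, Klf9, Klf10, Klf13 and Klf16, out of 39179 genes in the deposited count table (21392 of them with any count). All 10 passed the filter on low counts, so none was lost before the test. They were chosen with earlier results of these data known, so that pass is no finding. The 7 other KLF genes of the table (Klf1, Klf8, Klf11, Klf12, Klf14, Klf15 and Klf17) are described only beside them.

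The cells were mouse pancreatic epithelial cancer cells with a green fluorescent label, of strain FVB/B6 mix, whose genotype includes p48Cre, ROSA_rtTAL+ and p53L+. In this model Cre is driven by the p48 (Ptf1a) promoter, which is active in the developing pancreas, and rtTA is a transactivator that responds to doxycycline. Before sorting by colour and polyA RNA sequencing, they shared a dish for 72 h with pancreatic stellate cells carrying a red label, in 0.5% dialyzed serum. In the SHH antibody arm (4 libraries) the secreted ligand sonic hedgehog was neutralized with antibody at 20 µg/mL, and the no antibody arm (4 libraries) received none. Genotype, co-culture and serum were shared by both arms. The labels speak of biological samples, name no control antibody, and do not say whether the cells were 1 clone or whether tetracycline or doxycycline was in the medium.

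KLFs differ mainly in the part outside the zinc fingers. KLF2, KLF4, KLF5, KLF6 and KLF7 are mostly known as activators, KLF3 recruits the CtBP corepressors, and KLF9, KLF10, KLF13 and KLF16 recruit the SIN3 corepressor. In epithelia KLF4 is known for the differentiated, non-dividing cells of gut and skin and KLF5 for the dividing ones. Since family members bind similar DNA, their relative amounts matter to what is bound, and amounts of RNA are what these libraries measured.

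Gene counts per library summed to 14953255 to 15733280 in the SHH antibody arm and to 10009711 to 14602784 in the no antibody arm, so the antibody libraries were all deeper (exact two-sided permutation p = 0.0286, the smallest that 70 assignments allow, and 0.114 when adjusted by Benjamini-Hochberg for 8 such measures; n = 4 each). The biological coefficient of variation was 3.25% with antibody and 6.98% without, where replicate 1 differed most from the others of its arm. The sorted cells had the keratin RNA of epithelium. Keratin, Epcam, claudin and Sox9 markers summed to 6478 to 6998 CPM (counts scaled by library size) with antibody and 5807 to 6957 CPM without. Krt7, Krt8, Krt18 and Krt19 made up most of that sum. Sox9 had 1993 counts with antibody and 1690 without, and Epcam 1533 with antibody and 984 without. Cldn4 had only 171 counts with antibody and 154 without, and Cldn7 had 0 to 15 counts in each library. Epcam was the only 1 of these epithelial markers called (edgeR, log2 fold change 0.28, adjusted p = 0.022). Of 15 stellate and fibroblast markers 13 had a count, and only 5 had at least 10 counts in every library. Dcn and Lum were at 0 in all libraries, and Acta2, Tagln, Des, Postn and Fap had 0 to 6 counts in each. The 15 markers summed to 140 to 167 CPM with antibody and 133 to 167 CPM without, most of it Col5a1. Endothelial markers, which matter because KLF2 and KLF4 are abundant in endothelium, summed to 13.95 to 15.5 CPM with antibody and 12.0 to 13.9 CPM without (exact permutation p = 0.0286, adjusted 0.114, n = 4 each). Most of that sum was Cdh5, with 771 counts over the antibody libraries and 546 over the others. Kdr had 58 counts with antibody and 29 without, Eng 51 with antibody and 32 without, and Vwf 11 in each arm, while Pecam1, Tek, Tie1 and Emcn had 0 to 3 counts in each library. Cdh5, Kdr and Eng were tested and not called (edgeR, log2 fold changes 0.14, 0.64 and 0.32, adjusted p = 0.43, 0.298 and 0.636). Acinar markers summed to 2.88 to 3.75 CPM with antibody and 2.61 to 4.70 CPM without, with Cpa1, Cela2a and Pnlip at 0, and leukocyte markers to 4.88 to 6.68 CPM with antibody and 4.93 to 6.28 CPM without, with Adgre1 and Cd3e at 0.

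With the antibody Klf4 rose and Klf6 and Klf10 fell, and the other 7 members did not pass the test. The changes were modest: Klf4 was 1.23-fold higher, and Klf6 and Klf10 stood at 0.80 and 0.873 of their level without antibody. The arms did not overlap for these 3 genes. Among all 13626 genes tested 8.4% were called in either direction, 4.53% higher and 3.87% lower, and 14.3% had arms that did not overlap (7.71% higher, 6.56% lower). With only 10 members, 3 calls describe these genes and are no test of the family. The median log2 fold change of the 10 members was -0.06, against 0.00 over all genes tested.

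The promoters of Klf4 and Klf6 are shown because these were the 2 members whose calls held in every alternative run, in opposite directions. RefSeq windows (GRCm38.p6, from 250 bases before to 50 after the start) were at hand for 7 of the 10 members, and those of Klf5, Klf10 and Klf16 are not shown. Capitals mark the GC box GGGCGG, the CACCC box and the E-box CACGTG, each searched on both strands, 5′ to 3′ along the gene.
Klf4 (chr4:55532426-55532725, minus strand): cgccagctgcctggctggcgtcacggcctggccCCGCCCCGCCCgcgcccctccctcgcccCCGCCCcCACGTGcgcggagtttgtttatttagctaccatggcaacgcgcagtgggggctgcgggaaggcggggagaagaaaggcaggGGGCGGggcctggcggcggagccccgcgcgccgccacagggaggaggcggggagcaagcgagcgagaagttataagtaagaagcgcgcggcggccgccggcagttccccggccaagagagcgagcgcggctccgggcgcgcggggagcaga
Klf6 (chr13:5861239-5861538, plus strand): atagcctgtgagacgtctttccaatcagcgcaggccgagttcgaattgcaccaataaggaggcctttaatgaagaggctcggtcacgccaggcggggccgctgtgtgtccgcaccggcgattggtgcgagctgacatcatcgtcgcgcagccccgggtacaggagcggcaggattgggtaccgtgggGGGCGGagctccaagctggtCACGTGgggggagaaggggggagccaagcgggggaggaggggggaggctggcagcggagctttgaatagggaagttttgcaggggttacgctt

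The Klf4 window held 4 matches to GGGCGG, of which a pair share a base, and the Klf6 window held 1. GGGCGG, the box that SP factors and many KLFs bind, occurred in 6 of the 7 member windows and in 35.7% of all 32851 windows in the table. CACCC was found in neither the Klf4 nor the Klf6 window, but in the 5 others, and in 57.5% of all windows. CACGTG, the E-box of MYC and related factors, was present once each in Klf4 and Klf6 and in no other member window, where 7.15% of all windows held it. CCAAT occurred 4 times in Klf6, 3 times in Klf9 and 2 times in Klf13. It was in no other member window, Klf4 included, and in 37.4% of all windows. The sequence GACCACCCA, bound by the GLI factors of the hedgehog pathway, which itself contains CACCC, was in no member window and in 0.253% of all windows. TGANTCA, a looser form of the AP-1 sequence with any middle base, was in Klf9 alone (7.81% of all windows). The match in Klf9 was TGAATCA, where the usual AP-1 sequence has C or G in the middle. The MEF2 element, through which ERK5 signalling reaches Klf2, was in Klf2 alone (3.19% of all windows). TATAAA (13.6% of all windows), the CArG box of SRF (1.63%) and TGACGTCA of CREB (1.79%) were in none of the 7. The GC content of the member windows was 58.3% to 76.7%, against a median of 52.7% over all windows, so their counts of GC boxes are not independent of base composition.

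Levels between genes were compared on the authors' RPKM values, which divide by gene length. Klf5, Klf6 and Klf3 were the most abundant members and Klf2 and Klf7 the least. Klf5 averaged 71.0 ± 0.67 RPKM with antibody and 79.8 ± 11.2 RPKM without (SD, n = 4 each, as for all levels here). Klf6 averaged 56.3 ± 4.84 RPKM with antibody and 69.9 ± 1.87 RPKM without, and Klf3 55.2 ± 1.09 RPKM with antibody and 58.6 ± 4.60 RPKM without. Averaged over all libraries, all 3 were above the 94th percentile of the genes with a count. Klf4 followed at 25.4 ± 0.73 RPKM with antibody and 20.5 ± 1.5 RPKM without, and Klf16 at 15.6 ± 1.13 RPKM with antibody and 14.9 ± 1.22 RPKM without.

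**Figure D1:**
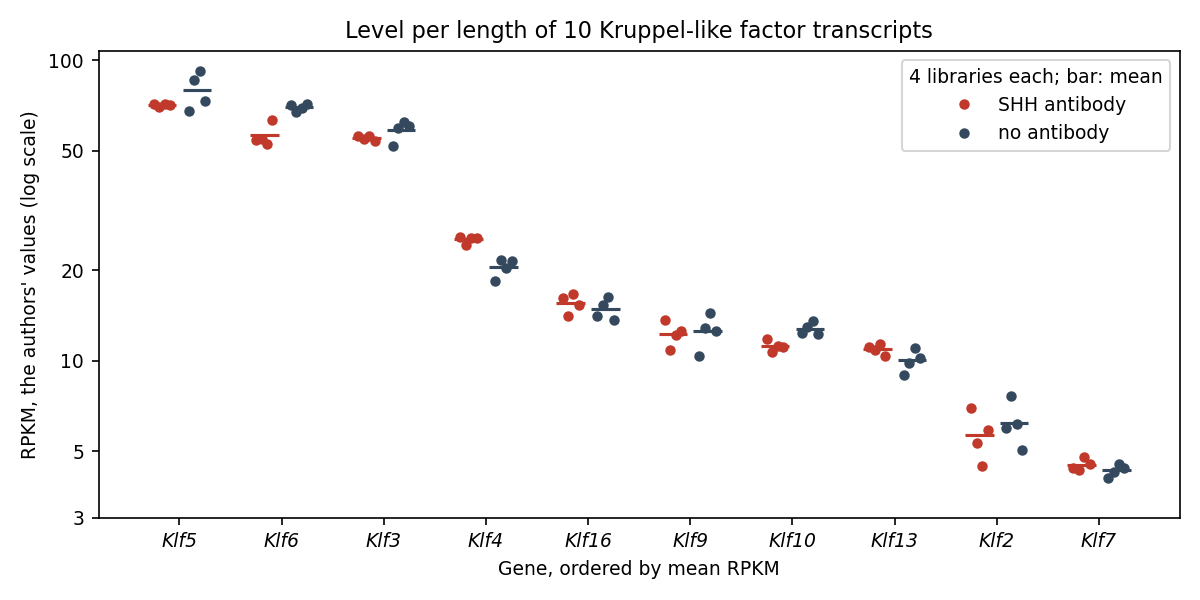
RPKM values of the 10 Kruppel-like factor transcripts in each library on a log axis, ordered by their mean over the 8 libraries, with the SHH antibody arm left of the no antibody arm for each gene and bars at the means. Klf5, Klf6 and Klf3 lie between 51.9 and 92.2 RPKM, apart from the 7 others, which lie between 4.09 and 25.9 RPKM.

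Klf9, Klf10 and Klf13 lay close together, at 12.3 ± 1.14, 11.2 ± 0.48 and 10.9 ± 0.43 RPKM with antibody and 12.5 ± 1.68, 12.8 ± 0.61 and 10.03 ± 0.86 RPKM without. Klf2 averaged 5.66 ± 1.04 RPKM with antibody and 6.20 ± 1.07 RPKM without, and Klf7 4.52 ± 0.21 RPKM with antibody and 4.32 ± 0.19 RPKM without. Of neighbours in this order, the libraries of Klf6 and Klf3, of Klf9 and Klf10, of Klf10 and Klf13 and of Klf2 and Klf7 overlapped with antibody. Without antibody those of Klf5 and Klf6, of Klf16 and Klf9 and of Klf9 and Klf10 overlapped. The rank of Klf3 and Klf5 rests on the gene length the authors used, 2479 and 1721 bases, where the union of exons in GENCODE M21 (same build) is 11243 and 5201 bases. With the same counts divided by the GENCODE lengths, the means with antibody would be 12.2 RPKM for Klf3 and 23.5 RPKM for Klf5. Those lie below the 25.4 RPKM of Klf4, and Klf6 would rank first at 54.1 RPKM. Whether the deposited counts took in reads from all of these exons is not known, so that order was not measured. Comparisons between the arms do not depend on length.

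Klf4 encodes a zinc-finger activator that drives differentiation of gut and skin epithelium and is known to induce the cell cycle inhibitor Cdkn1a. The gene (ENSMUSG00000003032) lies on chromosome 4, 55527143 to 55532466 on the minus strand of GRCm38. Its level was 78.2, 74.0, 78.0 and 78.4 CPM in the SHH antibody libraries, against 57.0, 66.2, 62.0 and 65.7 CPM in the no antibody libraries. The lowest antibody library lay above the highest library without antibody, and the libraries of the antibody arm lay close together. The log2 fold change was 0.30 ± 0.05 SE (edgeR quasi-likelihood test, adjusted p = 0.000957; 95% interval of the fold 1.14 to 1.33). After thinning all libraries to the smallest total, in a single random draw of their counts, it was 0.31 (edgeR, adjusted p = 0.00129). The summed endothelial markers were higher with antibody as well. Among them Cdh5, Kdr and Eng, the only ones with enough counts for the test, leaned higher and were not called. Vwf had 11 unscaled counts and Pecam1 had 6 in each arm, too few for the test. The part of endothelial RNA in the Klf4 values was not tested. Of all counts on the 10 members Klf4 took 9.29% to 9.64% in the antibody libraries and 6.68% to 7.48% in the others.

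Klf6, a broadly expressed member that is known as an early response gene in activated hepatic stellate cells and as an inducer of Cdkn1a, changed in the opposite direction. The gene (ENSMUSG00000000078) lies on chromosome 13, 5861489 to 5870393 on the plus strand of GRCm38. It stood at 227, 230, 222 and 268 CPM in the SHH antibody libraries, against 305, 285, 293 and 301 CPM in the no antibody libraries. The antibody libraries were all lower, with replicate 4 well above the 3 others of its arm but still under the lowest library without antibody. The log2 fold change was -0.32 ± 0.05 SE (edgeR, adjusted p = 0.000507; 95% interval of the fold 0.739 to 0.866), and -0.33 (adjusted p = 0.00024) after thinning. Klf6 gave the most counts of the 10 members in every library, 27.4% to 31.8% of them with antibody and 31.5% to 36.6% without.

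**Figure D2:**
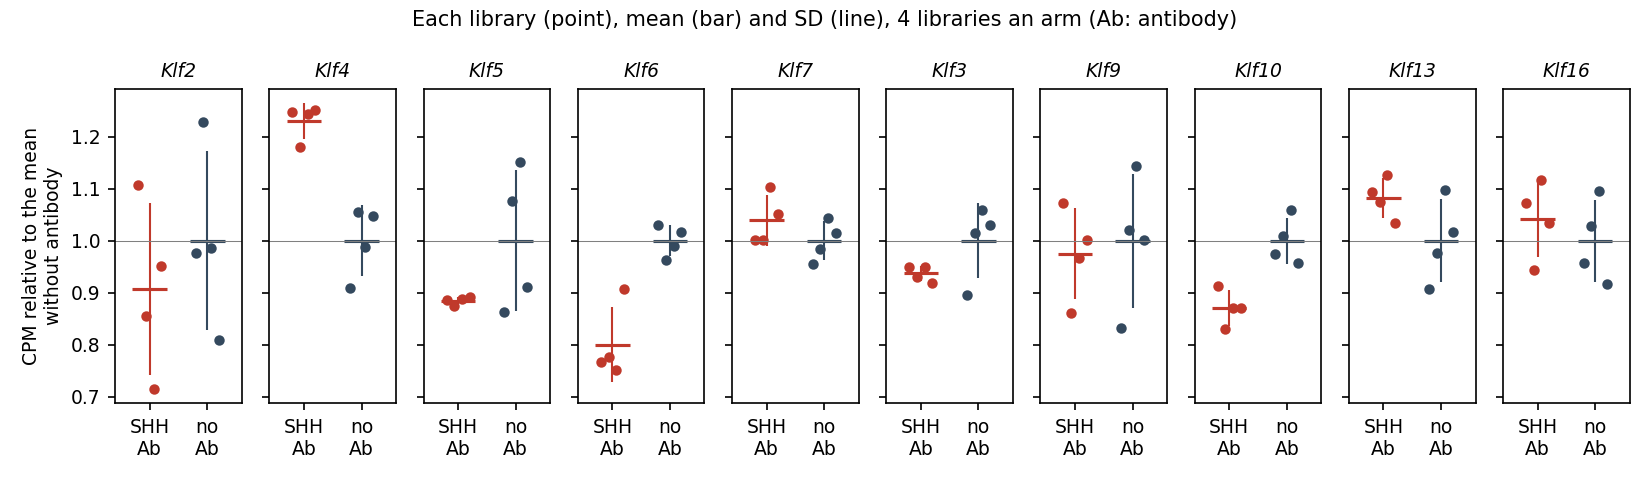
CPM of each member in each library, divided by that member's mean in the no antibody arm, with the SHH antibody arm left and the no antibody arm right in each panel (points: libraries; bar: mean; line: SD). Klf4 lies higher and Klf6 and Klf10 lower with antibody without overlap of the arms, and Klf5 and Klf3 show a narrow antibody arm beside a wide no antibody arm.

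Of the 15 stellate and fibroblast markers 7 had enough counts for the test, and they did not move together. Pdgfra, a growth factor receptor of stellate cells and fibroblasts, was the 1 called, at 2.77 ± 0.49 CPM with antibody and 4.96 ± 0.89 CPM without (log2 fold change -0.84 ± 0.17 SE, edgeR, adjusted p = 0.00271), lower without overlap of the arms, as Klf6 was. After thinning, which was a single random draw, it was -0.54 and not called (edgeR, adjusted p = 0.0923). The 6 others, Col1a1, Col1a2, Col3a1, Col5a1, Col6a3 and Pdgfrb, had log2 fold changes of 0.07 to 0.66 and were not called. Col1a1, Col1a2 and Col3a1 (chosen as a sum after their values were seen) summed to 39.1, 29.4, 22.5 and 47.0 CPM in the antibody libraries, against 38.1, 21.2, 18.5 and 21.7 CPM in the no antibody libraries (exact permutation p = 0.171, n = 4 each). The library with the most of this collagen RNA in each arm, antibody replicate 4 and no antibody replicate 1, was also the one with the most Klf6. Without both of those libraries, an alternative chosen after the data were seen that also removes the highest Klf6 value of each arm, the log2 fold change of Klf6 was -0.37 (edgeR, adjusted p = 2.02e-06). The part of stellate RNA in the Klf6 values was not tested. In bulk RNA fewer cells of a kind and less RNA per cell cannot be told apart.

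**Figure D3:**
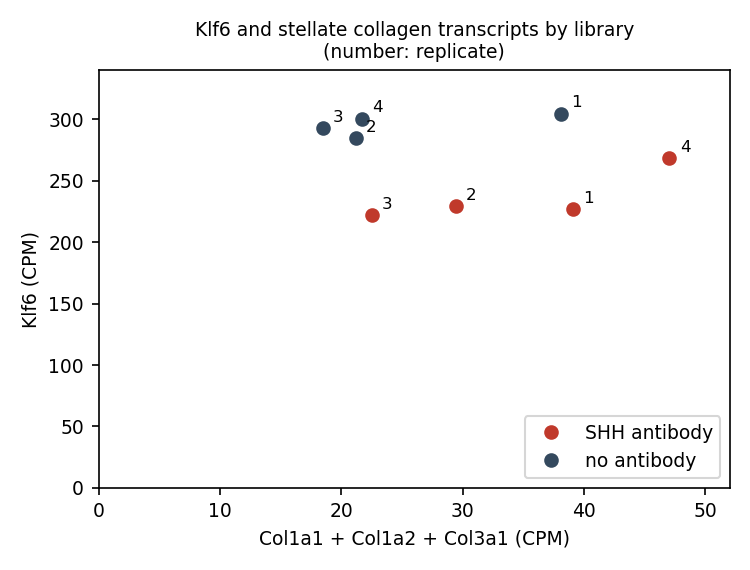
Klf6 (CPM) against the summed CPM of Col1a1, Col1a2 and Col3a1 in each of the 8 libraries, numbered by replicate, for the SHH antibody and the no antibody arm. The antibody libraries lie at 222 to 268 CPM of Klf6 and the no antibody libraries at 285 to 305 CPM, over overlapping ranges of collagen RNA.

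Klf10, first described as a TGF-beta-inducible early gene, was the third member called. The gene (ENSMUSG00000037465) lies on chromosome 15, 38294413 to 38300707 on the minus strand of GRCm38. It stood at 35.7, 32.4, 34.0 and 34.1 CPM in the antibody libraries, against 38.1, 39.4, 41.4 and 37.4 CPM in the no antibody libraries. Every antibody library was lower, by a narrow margin. The log2 fold change was -0.20 ± 0.06 SE (edgeR, adjusted p = 0.0435; 95% interval of the fold 0.801 to 0.951), close to the threshold. The call was lost in 12 of 21 alternatives, among them DESeq2 (adjusted p = 0.0648), the replicate block (adjusted p = 0.0671) and thinning to equal depth (-0.15, adjusted p = 0.231), and it held in 3 of the 8 fits that left out a single library. It was lost without antibody replicate 2 (adjusted p = 0.165), 3 (0.115) or 4 (0.103) and without no antibody replicate 2 (0.0809) or 3 (0.127), with log2 fold changes of -0.17 to -0.20.

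Klf5, the partner of Klf4 in gut epithelium that is known for dividing cells, did not pass the test with all libraries. The gene (ENSMUSG00000005148) is on chromosome 14, 99298691 to 99313405 on the plus strand. It stood at 122.0, 120.4, 122.4 and 122.8 CPM in the antibody libraries, against 118.7, 148.1, 158.4 and 125.5 CPM in the no antibody libraries. The antibody arm was almost constant, while the other arm was spread over both sides of it, its replicate 1 being the lowest of all 8 libraries. The log2 fold change was -0.17 ± 0.07 SE (edgeR, adjusted p = 0.126). A call as lower appeared when no antibody replicate 1 was dropped (-0.24, adjusted p = 0.00473), or replicates 1 and 4 of that arm (-0.33, adjusted p = 4.62e-07). Weighting the samples in voom (-0.24, adjusted p = 0.00378) and keeping genes of low counts (-0.17, adjusted p = 0.0359) gave it too. The fit with genes of low counts gave no weight to each gene's own spread between libraries. Its prior degrees of freedom were infinite, against 15.4 in the main fit, and the log2 fold change of Klf5 was the same. Without antibody replicate 4 and no antibody replicate 1 the call was made as well (-0.24, adjusted p = 0.0138). Without no antibody replicate 3 its value was -0.10 (adjusted p = 0.403).

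Klf3, the CtBP-binding repressor, had the same shape as Klf5, with 138.1, 135.5, 138.1 and 133.9 CPM in the antibody libraries, against 130.3, 147.7, 154.2 and 149.996 CPM in the no antibody libraries. The lowest of all 8 libraries was again no antibody replicate 1. The gene (ENSMUSG00000029178) is on chromosome 5, 64803523 to 64830129 on the plus strand. The log2 fold change was -0.09 ± 0.05 SE (edgeR, adjusted p = 0.315). Dropping that library gave a call as lower (-0.14, adjusted p = 0.0234), and so did dropping no antibody replicates 1 and 4 (-0.15, adjusted p = 0.0103). That replicate 1 also had the highest share of mitochondrially encoded mRNA, 6.21%, against 3.94% to 4.77% with antibody and 4.10% to 4.55% in the others without. Its part in the values of Klf3 and Klf5 was not tested beyond leaving it out.

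**Figure D4:**
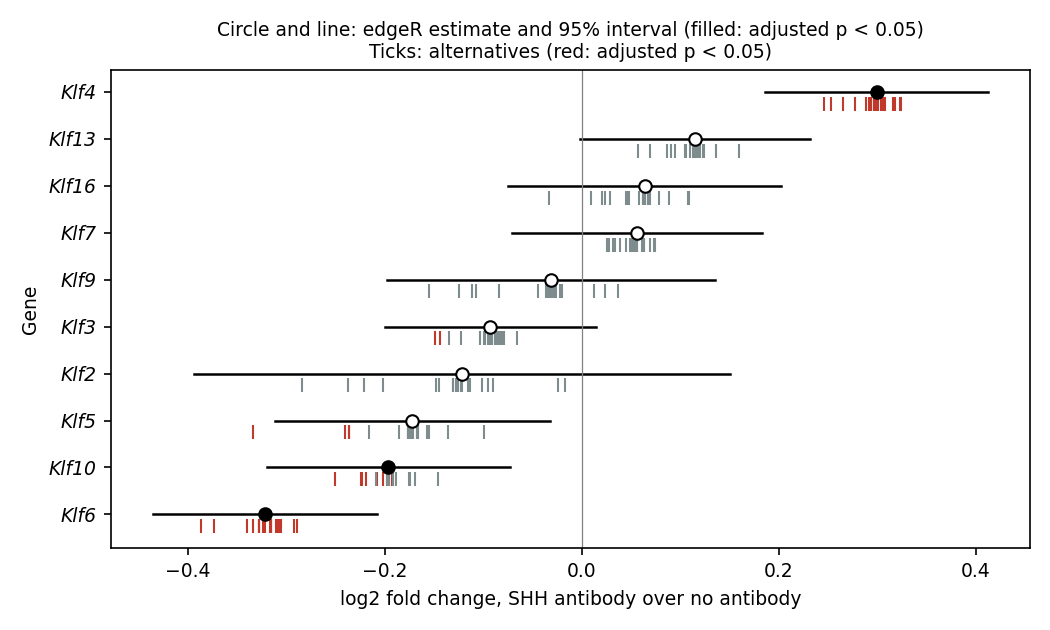
Log2 fold change, SHH antibody over no antibody, of the 10 members from edgeR, with 95% intervals (filled circles pass the adjusted threshold), and below each the values under 21 alternatives (red ticks pass it). Klf4 and Klf6 keep their calls throughout, Klf10 in 9 of 21, and Klf5 and Klf3 gain a call in 5 and 2 of 21.

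The 5 other members had log2 fold changes between -0.12 and 0.12, none of them called with all libraries or under any of the 21 alternatives. Klf13, a SIN3-recruiting factor known from activated T lymphocytes, averaged 82.0 ± 2.94 CPM with antibody and 75.8 ± 6.03 CPM without (log2 fold change 0.12, 95% interval 0.00 to 0.23, edgeR adjusted p = 0.241). Klf16, another SIN3-recruiting repressor, averaged 41.5 ± 2.93 CPM with antibody and 39.9 ± 3.15 CPM without (log2 fold change 0.06, 95% interval -0.07 to 0.20). Klf9, which glucocorticoid and thyroid hormones induce in many tissues, averaged 40.0 ± 3.61 CPM with antibody and 41.0 ± 5.26 CPM without (log2 fold change -0.03, 95% interval -0.20 to 0.14).

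Klf7, a regulator of neuronal and fat cell development, averaged 34.9 ± 1.64 CPM with antibody and 33.5 ± 1.27 CPM without (log2 fold change 0.06, 95% interval -0.07 to 0.18). Klf2, which keeps endothelial cells and lymphocytes quiescent, was the member with the fewest counts, 198, 155, 125 and 163 with antibody and 144, 141, 121 and 136 without. Its level was 10.4 ± 1.89 CPM with antibody and 11.5 ± 1.98 CPM without, and its interval was the widest of the 10 (log2 fold change -0.12, 95% interval -0.39 to 0.15). A change of Klf2 as large as that of Klf6 was therefore not excluded by its interval. Overlapping genes in the table, for Klf3, Klf7, Klf9 and Klf13, had at most 12 counts in any library, and none overlaps Klf2, Klf4, Klf5, Klf6, Klf10 or Klf16.

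Of the 7 KLF genes outside these 10 only Klf11, the closest relative of Klf10 and likewise induced by TGF-beta, had enough counts for the test. It stood at 26.5, 27.3, 25.8 and 27.5 CPM in the antibody libraries, against 22.9, 24.0, 25.5 and 25.1 CPM in the no antibody libraries. The antibody libraries lay just above the others, and the log2 fold change of 0.14 ± 0.07 SE was not called (edgeR, adjusted p = 0.246). Klf1, Klf8, Klf12 and Klf15 had 0 to 6 counts in each library. Klf17 had 1 count in all, and Klf14 had 0 counts, where 3 counts correspond to 0.19 to 0.30 CPM. The SP factors, which share the zinc fingers of the KLFs, had 4 of 9 genes tested and none called.

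Genes that are known to act on or with KLFs were read out of the same fit. The 8 lists were the other KLFs, SP factors, cofactors, protein turnover, 3 upstream routes and reported targets. Of their 73 tested genes 13 were called, where 8.4% of all genes were called. The lists were chosen with earlier results of these data known, so this count describes them and is no test of them. Among 11 cofactors Fhl3, a LIM protein that binds KLF3, fell (log2 fold change -0.18 ± 0.05 SE, adjusted p = 0.0326), and the CtBP, SIN3, HDAC and acetyltransferase genes were not called (list median 0.02). Among 13 genes of KLF protein turnover, Fbxw7, a ubiquitin ligase subunit that targets KLF5 and KLF2, rose (0.18 ± 0.05 SE, adjusted p = 0.0391) and Fbxo32, reported for KLF4, fell (-0.28 ± 0.09 SE, adjusted p = 0.0437; list median 0.05). None of 7 tested genes of the ERK5 and MEF2 route, known to induce Klf2 and Klf4, was called (list median -0.03). Fhl3, Fbxw7 and Fbxo32 kept their calls in 12, 7 and 9 of 21 alternatives.

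Of 10 tested genes of the nuclear receptor route that leads to Klf9, 1 rose and 2 fell (list median -0.03). Fkbp5, a glucocorticoid-induced chaperone, averaged 70.7 ± 2.86 CPM with antibody and 57.9 ± 3.86 CPM without (log2 fold change 0.29 ± 0.06 SE, adjusted p = 0.00204). Tsc22d3, another glucocorticoid-induced gene, averaged 15.5 ± 0.66 CPM with antibody and 20.1 ± 0.27 CPM without (-0.37 ± 0.08 SE, adjusted p = 0.00279). These 2 transcripts of the same hormone route thus moved in opposite directions, and Klf9 was not called. The clock gene Per1 fell (-0.25 ± 0.08 SE, adjusted p = 0.0427) and kept its call in 9 of 21 alternatives.

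Of 9 genes of the TGF-beta route that induces Klf10, Smad3, a signal transducer, rose (0.22 ± 0.05 SE, adjusted p = 0.00528) and Smad7, a feedback inhibitor, fell (-0.25 ± 0.07 SE, adjusted p = 0.0307), the second with its call kept in 11 of 21 alternatives (list median -0.04). Of 18 tested genes that have been reported as KLF targets in various cells, 3 rose and 2 fell (list median -0.04). Cdkn1a, which KLF4 and KLF6 are both known to induce, averaged 36.1 ± 2.40 CPM with antibody and 47.1 ± 4.43 CPM without (-0.38 ± 0.07 SE, adjusted p = 0.000983). Cdkn1a fell, where Klf6 fell and Klf4 rose, and the part of either factor in its level was not tested. Krt13, a keratin of stratified epithelium, rose to 4.60 ± 0.54 CPM with antibody, against 2.41 ± 0.78 CPM without (0.94 ± 0.19 SE, adjusted p = 0.00222). Pdgfa, a growth factor gene, rose (0.48 ± 0.08 SE, adjusted p = 0.000244), Ptges, a prostaglandin synthase, fell (-0.43 ± 0.09 SE, adjusted p = 0.00235), and Birc5, a survival gene of dividing cells, rose by less (0.20 ± 0.06 SE, adjusted p = 0.0393, its arms overlapping, with the call kept in 10 of 21 alternatives).

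**Figure D5:**
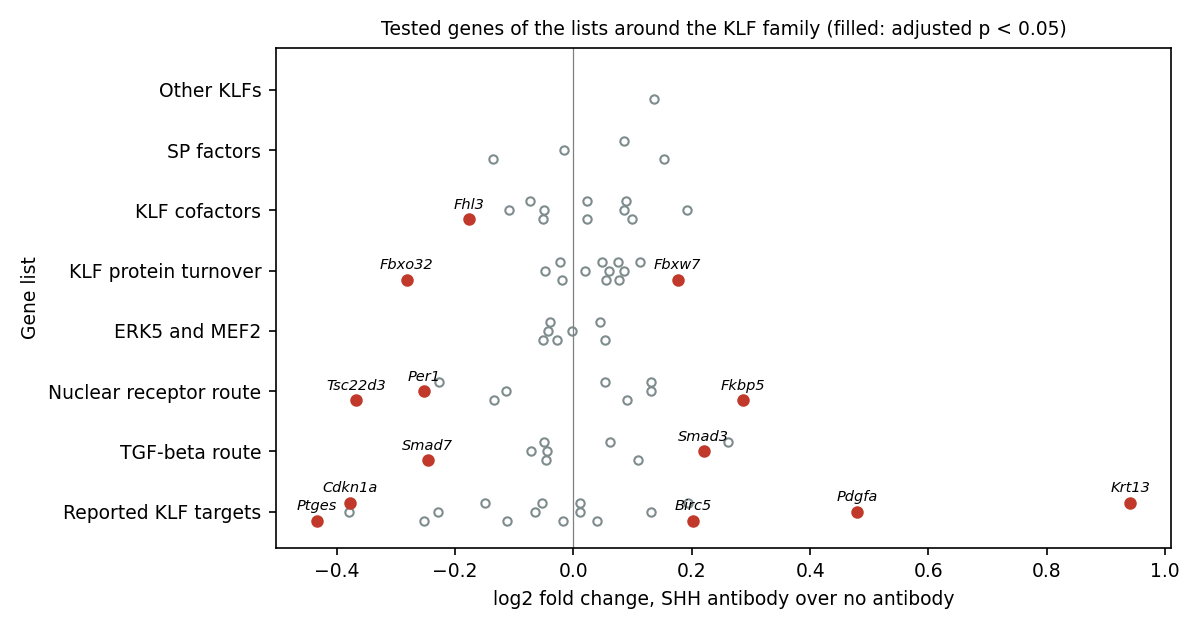
Log2 fold change, SHH antibody over no antibody, of each tested gene (circle) in the 8 lists around the KLF family, with genes past the adjusted threshold filled and named. The 13 called genes, 6 higher and 7 lower, lie between -0.43 and 0.94, with Krt13 farthest out, and no gene of the other KLFs, the SP factors or the ERK5 and MEF2 list is called.

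The genes whose values ran most like those of the called members were sought by the root mean square (RMS) difference of centred log2 CPM over the 8 libraries among 11113 protein-coding genes of at least 1 CPM. They were picked by likeness over these same libraries, so a direction shared with the member follows from that choice. Nearest to Klf4 were Rhou, a small GTPase gene (RMS difference 0.029), B4galt6, a galactosyltransferase gene (0.043), and Coro2a, a coronin gene (0.047), where the RMS of Klf4 itself was 0.16. Rhou averaged 69.8 ± 0.90 CPM with antibody and 56.6 ± 4.80 CPM without. Nearest to Klf6 were Car12, a carbonic anhydrase gene (0.043), Iqcc (0.049) and Ghr, the growth hormone receptor gene (0.053), all lower with antibody in each library, with Iqcc not called (adjusted p = 0.0918). Nearest to Klf10 were Mafk, a small MAF factor gene (0.024), Arhgef28, an exchange factor gene (0.031), and Ric8 (0.032).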

How the data were processed

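The libraries were strand-specific and polyA-selected, made from 500 ng of RNA with 12 cycles of amplification and read in pairs of 101 bases, per the labels' protocols. Bases were called with CASAVA 1.8.2 and reads aligned with TopHat2 2.0.9 to GRCm38, per the submitters' processing notes. Which counter, strand setting and annotation release were used is not given in the sources used here. Raw counts per gene and RPKM values for 39179 genes are as the authors deposited them. In 12746 of 12746 genes checked, their RPKM equals the count over 1 gene length and the column total, with lengths whole within 0.01 bases.

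Members were matched by symbol. The members and gene lists were chosen with earlier results of these data known. The test was edgeR's quasi-likelihood F test (version 4.0.16, R 4.3.3) with TMM factors and the arm as the only term, on the 13626 genes that filterByExpr kept, with Benjamini-Hochberg adjusted p called under 0.05. CPM are TMM-scaled, as mean ± SD, and fold changes are antibody over no antibody. Sums of markers are CPM of the library total. The procedure was tested on simulated counts. Alternatives were RLE and upper quartile scaling, no or a stricter filter (1 CPM in 4 libraries), the replicate block, DESeq2 1.42.0, voom with sample weights (limma 3.58.1), log2(RPKM + 1) and log2(RPKM + 0.1), thinning, removal of length and GC trends, and leaving out libraries. Leaving out the library of each arm with the most collagen RNA, and GENCODE exon lengths, were added after the data had been seen.

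Named were the 10 members, called genes of each list (at most 6) and the 3 genes nearest in pattern to each called member. Counts of replicates differed by more than sampling noise (chi-square per degree of freedom 1.72 to 3.70 with antibody, 1.79 to 11.2 without), so each library counts as 1 replicate. The pairs that held no antibody replicate 1 gave 9.26 to 11.2, and the other pairs of that arm 1.79 to 4.61. 1 allele of the genotype, carried by both arms, is not reported here. No batch is given in the labels, and whether replicates came from separate cultures is stated only as "biological". Standard errors take in the spread between libraries, and floors cover counting error only.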

Additional observations from a re-analysis of the deposited data

Results flagged for a closer look

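In 50 arms of 4 libraries, those of 25 genes named above, 5 had a library whose distance to its nearest neighbour took up most of the range of its arm. About 1 in 20 such arms would be flagged with no real outlier. Klf6 stood at 268 CPM in antibody replicate 4, against 222 to 230 CPM in the 3 others of that arm. Klf4 stood at 74.0 CPM in antibody replicate 2, against 78.0 to 78.4 CPM in the others. Fkbp5 stood at 75.0 CPM in antibody replicate 3, against 69.0 to 69.4 CPM in the others. Pdgfa stood at 17.8 CPM in no antibody replicate 1, against 15.4 to 15.6 CPM in the others. Birc5 stood at 56.4 CPM in no antibody replicate 2, against 47.6 to 48.6 CPM in the others.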

How the results depend on the processing

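Klf4 (log2 fold change 0.25 to 0.32) and Klf6 (-0.39 to -0.29) kept their direction and call under all 21 alternatives. The number of members called was 2 to 5 over fits without a single library, where 3 were called with all. It was 5 without no antibody replicates 1 and 4, when Klf3 and Klf5 were added. With no filter, a fit that gave no weight to each gene's own spread between libraries, it was 3, with Klf5 in place of Klf10. Of all genes, 675 and 670 were called on log2(RPKM + 1) and log2(RPKM + 0.1), 2262 without no antibody replicates 1 and 4, and 679 to 1485 without a single library, against 1144. Of list genes, 8 were called on either RPKM scale, 7 after thinning, 20 without those 2 libraries, and 7 to 12 without a single library, against 13. The causes were not tested. Uncalled values near 0 changed sign: Klf9 to 0.012 after thinning and within -0.11 to 0.037 without a single library (above 0 without antibody replicate 2 or no antibody replicate 3), and Klf16 to -0.033 without no antibody replicates 1 and 4. With the replicate number as a block 1005 genes, 2 members and 10 list genes were called. Same-numbered libraries did not deviate together across genes (r -0.03 to 0.01). The labels do not say what the numbers mean, and this correlation cannot exclude a shared culture with a small effect. Klf2, with 121 to 198 counts per library, had the widest interval.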
